A study of Mus musculus with 3 samples.

Results

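The 10 genes described here are the 4 CDC-like kinases Clk1, Clk2, Clk3 and Clk4, the LUC7-like genes Luc7l, Luc7l2 and Luc7l3, and Leng8, Rsrp1 and Pnisr, of 52636 genes in the count table. They were chosen by gene symbol, and the choice was made with the counts of these same libraries already known, among them the high count of Leng8. Their levels are therefore given as descriptions and are not tested. The set was also put together as CLK kinases, Leng8 and mRNAs prone to intron retention. Shares of annotated retained introns above the background were thus built into the choice and are descriptions too. All 10 were found, and all 10 passed a minimum CPM (counts per 1000000 assigned) of 1 in each replicate, as did 12471 nuclear protein-coding genes.

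The libraries hold poly(A) RNA of hippocampal cells that were sorted for tdTomato from male Camk2a-Cre +/-, Ai14 +/- mice on the C57BL/6J background. Ai14 places tdTomato under a ubiquitous promoter behind a stop that Cre removes, and Cre is driven here by the Camk2a promoter, which is active in forebrain excitatory neurons. The 3 biological replicates, each a pool of 2 to 4 mice at postnatal day 28 to 32, form the only group, so there is no control group and no contrast between conditions. Whole hippocampi were digested with papain, a treatment that strips most dendrites from the cell bodies.

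Assigned counts totalled 48159841, 25686630 and 15833075 in replicates 1, 2 and 3. No pair of replicates held identical values, and counts of each pair differed by more than sampling noise. Of the markers that define the labelled cell type, all 6 CA1 pyramidal markers and all 4 excitatory markers passed the CPM minimum, but so did all 3 dentate granule, all 5 oligodendrocyte and all 4 microglial markers. Astrocyte markers passed in 4 of 5, interneuron markers in 1 of 5 and endothelial markers in 2 of 4, and the GABA transporter Slc32a1 was at 0 in replicates 2 and 3. Levels of the lists were unequal, with medians of 259 TPM for CA1 and 1464 TPM for excitatory markers, 151 TPM for dentate, 54.3 TPM for oligodendrocyte, 8.81 TPM for microglial, 8.48 TPM for astrocyte, 4.84 TPM for endothelial and 1.52 TPM for interneuron markers, on the scale explained with the levels. In such bulk RNA, fewer cells of a type and less RNA per cell cannot be told apart.

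CLK kinases phosphorylate SR proteins, the serine- and arginine-rich splicing factors that gather in nuclear speckles, and thereby release them to act on pre-mRNA. Part of the RNA of Clk1 and Clk4 is known to stay in the nucleus as polyadenylated but incompletely spliced RNA, and CLK activity governs the splicing of these introns. LUC7-like proteins are relatives of yeast Luc7, a component of the U1 snRNP, the particle that recognises the 5′ splice site. Leng8 encodes a protein with a domain of the SAC3 family, which also holds the scaffold of the mRNA export complex TREX-2. Rsrp1 and Pnisr encode arginine- and serine-rich proteins, and the Pnisr protein is found in nuclear speckles.

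The introns around exon 4 are those that the annotation marks as retained in each of the 4 CLK genes. In the GENCODE M21 annotation of GRCm38, introns 3 and 4 of the reference transcript were both covered by an exon of a transcript of the type retained_intron in Clk1, Clk2, Clk3 and Clk4. This held for 182 of 9847 expressed protein-coding genes with at least 4 introns (1.85%). Their 5′ splice sites are shown to compare the 4 genes at each intron. Each is given with 3 exon bases and 6 intron bases, and the capitals mark the GT that opens the intron.

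Clk1 intron 3: gggGTatga
Clk2 intron 3: tcaGTgagt
Clk3 intron 3: tcgGTgagt
Clk4 intron 3: tcgGTatga
Clk1 intron 4: gatGTatag
Clk2 intron 4: gatGTacaa
Clk3 intron 4: gatGTacag
Clk4 intron 4: gatGTatag

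At intron 3, the 6 intron bases were GTatga in Clk1 and Clk4 and GTgagt in Clk2 and Clk3. All 4 sites of intron 4 opened with the same 6 bases, gatGTa, and those of Clk1 and Clk4 were identical. Only 22 of 6063 annotated retained introns with a readable site (0.363%) opened with these 6 bases, the 4 CLK introns among them. The commonest base at each of the 9 positions over the 6063 sites gave cagGTaagt. Each CLK intron 4 matched it at 4 of 9 positions, while 4 or fewer matches were found in 4.55% of the 6063 sites. The sites of intron 3 matched it at 5, 5, 6 and 5 positions in Clk1, Clk2, Clk3 and Clk4.

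The 3′ end of intron 4 is shown with 20 intron bases and 3 exon bases, and the capitals mark the AG that closes the intron.

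Clk1 intron 4, 3′ end: taattattcctcttttttAGatg
Clk2 intron 4, 3′ end: cctactttctttcgtttcAGatg
Clk3 intron 4, 3′ end: cagcttcttctttctcacAGatg
Clk4 intron 4, 3′ end: ctttctctcccttactttAGatg

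All 4 introns closed with AG followed by the exon bases atg. Intron 4 lies at chr1:58419734-58420120 on the minus strand in Clk1, chr3:89169703-89170048 on the plus strand in Clk2, chr9:57758351-57758626 on the minus strand in Clk3 and chr11:51273169-51273559 on the plus strand in Clk4. Its length was 387, 346, 276 and 391 bp in Clk1, Clk2, Clk3 and Clk4, and that of intron 3 was 871, 694, 2100 and 1055 bp. Exon 4 between them had 91 bp in Clk1, 85 bp in Clk2, 97 bp in Clk3 and 91 bp in Clk4, each leaving a remainder of 1 when divided by 3, so skipping it shifts the reading frame. Transcripts that skip it were annotated in all 4 genes, 3 in Clk1, 1 in Clk2, 1 in Clk3 and 3 in Clk4. Of these, 2, 1, 1 and 2 are annotated as targets of nonsense-mediated decay, and 1 of the 3 in Clk4 is annotated as protein-coding. The table gives 1 count per gene, so spliced and unspliced RNA of these introns cannot be told apart in the counts.

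Leng8 had 3 introns annotated as retained, introns 7, 11 and 12 of 14, and their 5′ sites are shown to set them beside those of the CLK genes.

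Leng8 intron 7: cagGTgact
Leng8 intron 11: gctGTaagt
Leng8 intron 12: acaGTaagg

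None of the 3 opened like CLK intron 4, and they matched the commonest bases at 7, 6 and 5 of 9 positions. The 3 introns lie on the plus strand at chr7:4142639-4142833, chr7:4144339-4144711 and chr7:4144814-4144894, with lengths of 195, 373 and 81 bp. Over the reference transcripts of all 10 genes, chosen as prone to intron retention, 16 of 105 introns (15.2%) were annotated as retained. The share was 4.51% of 134746 introns of expressed protein-coding genes, and 12 of the 16 belonged to the CLK genes. The median length of the 16 was 360 bp, with 257 bp for the retained introns of all expressed genes. Intron 3 of Rsrp1, with 1302 bp, was the 16th, and no intron of the reference transcripts of Pnisr, Luc7l, Luc7l2 or Luc7l3 was covered by a transcript of this type.

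Retained-intron transcripts made up most of the annotated exon length of the CLK genes, and this length enters every value per length. The deposited length is that of the merged exons of all transcripts of a gene. Bases covered by retained-intron transcripts alone took 63.8% of 8132 bp in Clk1, 59.8% of 5797 bp in Clk4, 58.4% of 8450 bp in Clk3 and 54.8% of 5299 bp in Clk2. More than 50% of the length was of this kind in 9.31% of expressed protein-coding genes. The share was 18.8% in Luc7l, 12.7% in Leng8, 8.74% in Luc7l2, 6.44% in Luc7l3 and 0.388% in Rsrp1, and 0 bp in Pnisr.

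**Figure D1:**
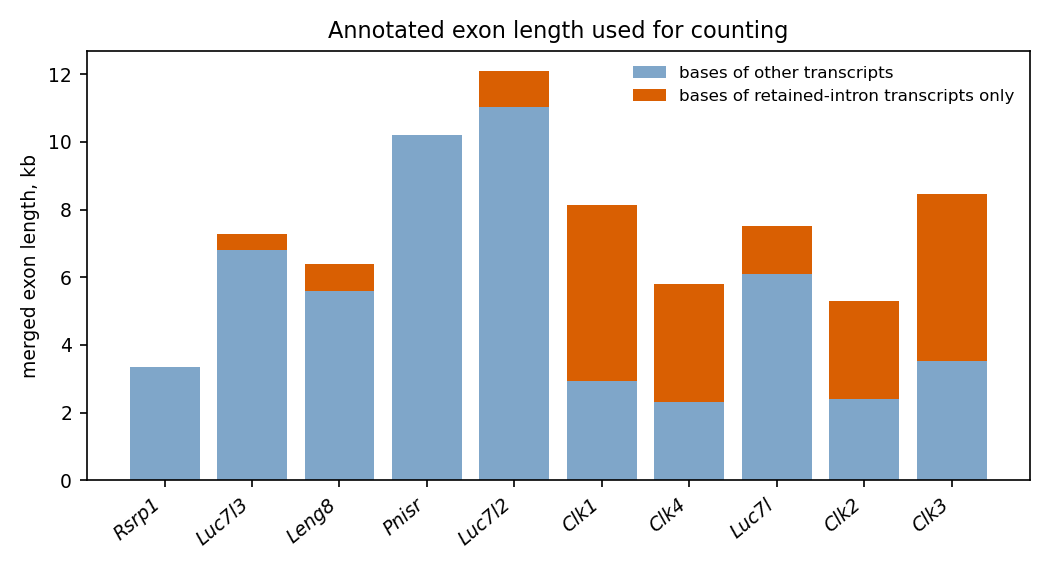
Merged exon length in kb of each gene as used for counting (bars from 0), split into bases that only retained-intron transcripts cover (orange) and all other exon bases (blue). The 4 CLK genes have 54.8% to 63.8% of their length in orange, and the other 6 genes at most 18.8%.

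Clk1 and Clk4 were the most heavily annotated, with 7 retained-intron transcripts each, of 13 and 14 transcripts. At least 7 were annotated in 2.45% of expressed protein-coding genes. Clk2 and Clk3 had 4 each, Leng8 and Luc7l2 had 3, Luc7l and Luc7l3 had 2, Rsrp1 had 1 and Pnisr had 0. In all, 9 of 10 had at least 1, in a set chosen as prone to intron retention, against 58.7% of expressed protein-coding genes. A transcript annotated for nonsense-mediated decay was found in 8 of 10, against 28.8%. The 10 genes also had more annotated transcripts of any type, with a median of 10.5 against 5 for expressed protein-coding genes. The part of this in the shares was not tested. The annotation draws on earlier RNA evidence from many tissues and does not come from these libraries.

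The transcripts of these genes were abundant in the sorted cells. Levels are given as TPM, the count divided by the deposited length and scaled to a sum of 1000000 over nuclear protein-coding genes. The median of the 10 genes was 170 TPM, against 37.6 TPM for the 12471 expressed protein-coding genes, and all 10 lay above that median. Of the 10, 5 were in the top 10% of these genes, which began at 171 TPM. Together they took 0.300% ± 0.00786 of TPM (SD, n = 3), and Rsrp1, Luc7l3, Leng8 and Pnisr held 76.3% ± 1.17 of that sum.

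Rsrp1 was the most abundant of the 10, with 803, 869 and 859 TPM in replicates 1, 2 and 3, a mean of 844 ± 35.8 TPM (SD, n = 3). It ranked 98th of 12471 genes. The gene lies at chr4:134923592-134927671, and its 5 merged exon blocks cover 82.1% of that span, so little of its span is annotated as intron only. The replicates counted 22420, 12856 and 7423 reads or fragments for it.

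Leng8 was the third in the order, behind Luc7l3, with 389, 389 and 368 TPM in replicates 1, 2 and 3. Its mean was 382 ± 11.96 TPM (SD, n = 3), above 97.2% of expressed protein-coding genes, and replicate 3 was the lowest. Counts were 20722, 10986 and 6071. Leng8 lies at chr7:4137039-4148177 on the plus strand, and 4.11% of its exon bases are shared with Leng9 on the opposite strand. Leng9 had 319, 187 and 58 counts, so few reads were assigned to that neighbour.

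Pnisr followed closely, with 351, 341 and 349 TPM and a mean of 347 ± 5.49 TPM (SD, n = 3). Leng8 was above Pnisr in all 3 replicates and the ranges did not overlap, but the difference was small, at 0.14 ± 0.06 on the log2 scale (SD, n = 3). Pnisr, at chr4:21847583-21876475, had no exon bases in common with another gene.

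Among the LUC7-like genes, Luc7l3 dominated. It had 700, 722 and 730 TPM, with a mean of 717 ± 15.7 TPM (SD, n = 3), from the highest counts of the 10, at 42476, 23200 and 13709. Luc7l2 had 174, 190 and 217 TPM (mean 194 ± 21.9, SD, n = 3), and was highest in replicate 3. Luc7l had 120, 116 and 128 TPM (mean 121 ± 5.76, SD, n = 3). The order Luc7l3, Luc7l2, Luc7l held in each replicate without overlap of the ranges.

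Luc7l3 accounted for 69.5% ± 1.38 of the summed TPM of the 3 genes, Luc7l2 for 18.7% ± 1.37 and Luc7l for 11.8% ± 0.405 (SD, n = 3). The log2 ratio of Luc7l3 to Luc7l was 2.56 ± 0.06, a 5.91-fold difference, and that of Luc7l2 to Luc7l was 0.67 ± 0.12 (SD, n = 3). The count of Luc7l2 is the least certain of the 3. Of its exon bases, 18.9% are shared with Gm26699, a noncoding gene on the opposite strand with 0 counts in each replicate, and 18.3% of the words of 31 bases in its coding transcripts occur in transcripts of other genes. The largest such overlap was with Gm11889, a processed pseudogene with 643, 400 and 305 counts, at 580 of 1067 shared words. Gm26699 held 349 of the shared words. The share of such words was 0.675% in Luc7l and 0.527% in Luc7l3.

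The 4 CLK genes summed to 384, 381 and 426 TPM in replicates 1, 2 and 3 (mean 397 ± 24.9, SD, n = 3). Clk1 had 144, 132 and 166 TPM, with a mean of 147 ± 17.0 TPM (SD, n = 3). Clk4 had 125, 127 and 140 TPM, with a mean of 131 ± 7.87 TPM. Clk1 was above Clk4 in each replicate, but their ranges overlapped, and the log2 ratio of Clk1 to Clk4 was 0.17 ± 0.10 (SD, n = 3).

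Clk2 had 66.4, 71.0 and 70.9 TPM (mean 69.4 ± 2.60, SD, n = 3), and Clk3 had 49.2, 50.4 and 49.3 TPM (mean 49.6 ± 0.640). Clk1 and Clk4 thus held 37.0% ± 2.11 and 32.9% ± 0.417 of the CLK sum, and Clk2 and Clk3 held 17.5% ± 1.01 and 12.5% ± 0.858 (SD, n = 3). Clk3 shares 15.2% of its exon bases with Edc3 on the opposite strand, which had 1547, 752 and 475 counts. Of the words of 31 bases in the coding transcripts of Clk3, 1188 (33.6%) occur in other genes on either strand. Edc3 holds 1147 of these words, so the overlap with Edc3 enters both shares. Clk1 and Clk4 shared 4 words of 31 bases, 0.227% and 0.178% of the words in their coding transcripts, so few reads of these transcripts can match both. Bases outside the coding transcripts of both genes, such as those of retained-intron transcripts only, were not compared.

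**Figure D2:**
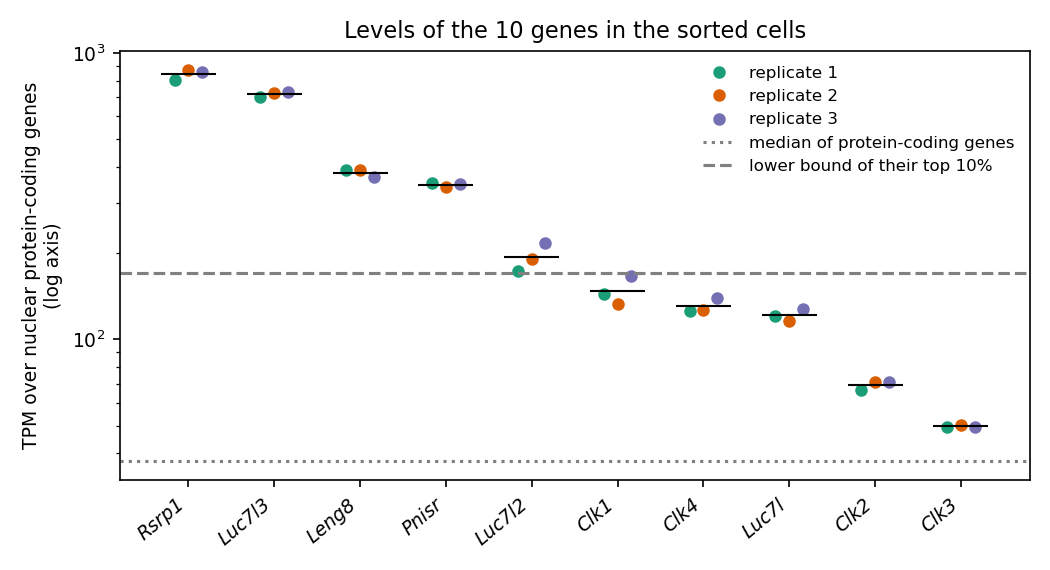
TPM over nuclear protein-coding genes (log axis) of each gene in the 3 replicates (coloured points) with the mean (bar). The dotted line is the median of 12471 expressed protein-coding genes, 37.6 TPM, and the dashed line is the lower bound of their top 10%, 171 TPM. Means run from 49.6 TPM for Clk3 to 844 TPM for Rsrp1.

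The order of the 10 by mean TPM was Rsrp1, Luc7l3, Leng8, Pnisr, Luc7l2, Clk1, Clk4, Luc7l, Clk2 and Clk3. Of the 9 neighbouring pairs, 7 had ranges that did not overlap over the replicates, and in all 9 the higher gene was higher in each replicate. The 2 pairs whose ranges overlapped were Clk1 with Clk4 and Clk4 with Luc7l. With 3 replicates, an exact paired permutation test (two-sided) cannot go below p = 0.25, and none was run.

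The place of the CLK genes depended on the length used. Without the bases covered by retained-intron transcripts alone, in every gene, the mean was 325 TPM for Clk1, 260 TPM for Clk4, 123 TPM for Clk2 and 95.2 TPM for Clk3. Leng8 had 349 TPM and Pnisr 277 TPM under this length. Of the 45 pairs among the 10 genes, 4 changed their order. Clk1 then stood above Pnisr and Luc7l2, and Clk4 above Luc7l2, and in these 3 pairs the ranges were apart with both lengths. In the fourth pair, Clk2 had the higher mean but its range overlapped that of Luc7l. Intron bases that transcripts of another type also cover stay in this length. Rsrp1 lost 13 of 3349 bp, although its retained intron 3 has 1302 bp. Pnisr lost 0 bp, although processed or protein-coding transcripts cover its introns 3, 8 and 11. TPM was scaled to the same sum with both lengths, so genes that lost few or 0 bp fell as others rose. Pnisr had 347 TPM with the deposited length and 277 TPM with this one. Reads that fall in retained introns still count in these values. How many of the counts lie in introns was not tested.

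**Figure D3:**
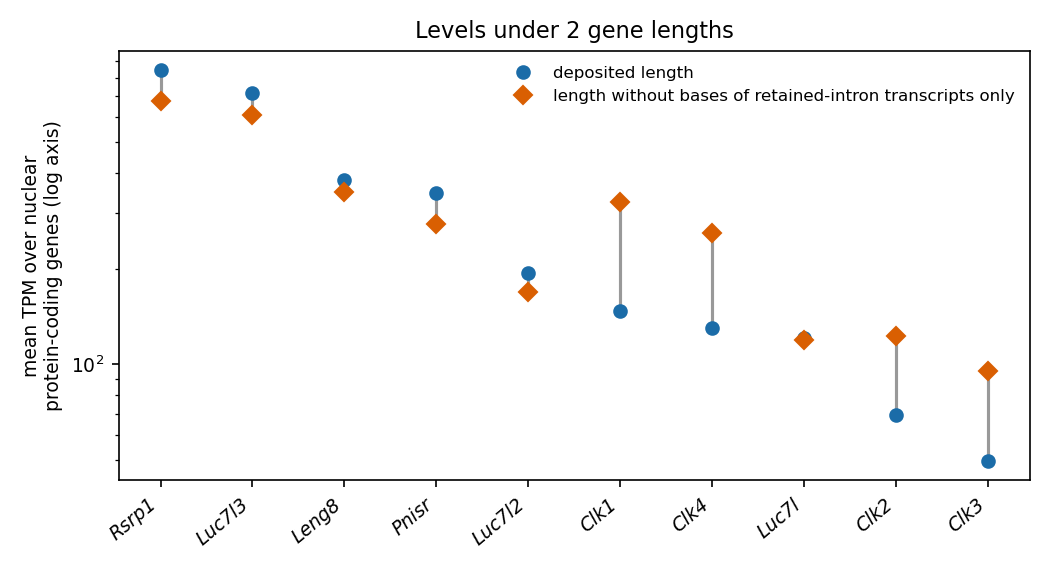
Mean TPM over nuclear protein-coding genes (log axis, n = 3) with the deposited length (circles) and with a length that leaves out bases of retained-intron transcripts only (diamonds). Clk1 has 147 and 325 TPM and Clk4 131 and 260 TPM, while Rsrp1 has 844 and 676 TPM. TPM is scaled to the same sum with both lengths, so Rsrp1 falls although it lost only 13 of 3349 bp.

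The spread between replicates was measured on normalized counts, and it depended on the scale. Normalized counts were counts divided by size factors (median of ratios), and their coefficient of variation had a median of 3.75% over the 10 genes, against 14.9% when taken from TPM over all genes. The median was 8.75% over expressed protein-coding genes and 6.44% over the 3280 of these within the same range of mean normalized counts. The lowest values were 2.09% for Luc7l3, 2.30% for Clk4, and 2.86% for both Luc7l and Clk2. The highest were 8.62% for Clk1, 7.47% for Luc7l2 and 6.74% for Leng8. Counting error alone gives 0.682% to 2.57% for these genes, and each of the 10 lay above its own counting error, by the least in Clk2, at 2.86% and 2.57%.

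Clk1 had 5478, 4942 and 5876 normalized counts in replicates 1, 2 and 3, and its highest replicate was 1.19-fold above its lowest. Luc7l2 had 9846, 10531 and 11426 normalized counts. Leng8 had 11651, 11409 and 10251, so it was lowest in the replicate in which Clk1 and Luc7l2 were highest. Of the 10 genes, 3 were highest in replicate 1, 4 in replicate 2 and 3 in replicate 3. The shares over expressed protein-coding genes were 41.9%, 27.5% and 30.6%. In replicate 3, 6 of the 10 were lowest, as were 45.7% of expressed protein-coding genes.

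Replicate 3 also had the most RNA of endothelial markers, with a summed level of 8.84, 20.2 and 71.7 TPM in replicates 1, 2 and 3, over 4 markers of which none was at 0. It was also the highest for microglial markers (28.0, 33.96 and 45.4 TPM over 4, none at 0), astrocyte markers (64.6, 35.1 and 76.9 TPM over 5, none at 0) and interneuron markers (67.2, 48.6 and 85.9 TPM over 5, with Slc32a1 at 0 in replicates 2 and 3). Single markers of these lists differed, as Aqp4, Gfap, Gad2 and Slc32a1 were highest in replicate 1. Replicate 3 was not the highest for dentate granule markers (895, 797 and 843 TPM). It was the lowest for oligodendrocyte (617, 755 and 612 TPM), CA1 (1450, 1537 and 1396 TPM) and excitatory markers (9892, 10476 and 9628 TPM). The nuclear noncoding RNA Malat1 had 6959, 9342 and 9495 CPM and Neat1, the scaffold of paraspeckles, 6.46, 10.1 and 9.47 CPM. The part of these in the spread of Clk1, Luc7l2 and Leng8 was not tested. Meg3, the most abundant of the 7 nuclear noncoding RNAs, had 9606 ± 391 CPM (SD, n = 3).

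**Figure D4:**
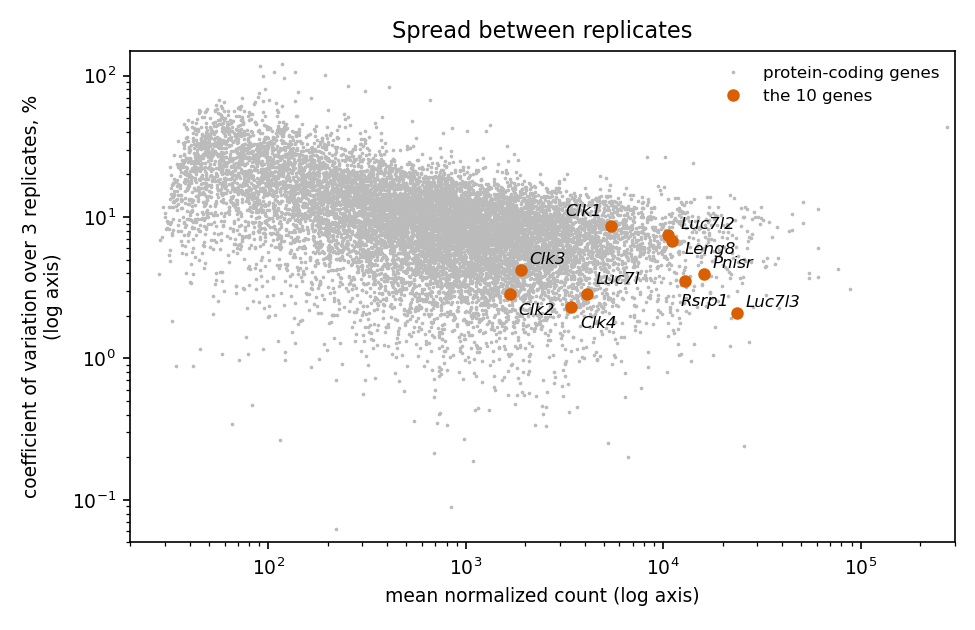
Coefficient of variation of normalized counts over 3 replicates in % against the mean normalized count (both log axes) for the 10 genes (orange) and for 12471 expressed protein-coding genes (grey). The 10 genes lie between 2.09% for Luc7l3 and 8.62% for Clk1.

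The genes closest to Leng8 in their profile over the 3 replicates were Cotl1, Rab5c, Ldb3, Sdhb and Zer1. Likeness was the root mean square difference of log2 normalized counts, each gene centred on its own mean, and it was 0.000914 to 0.00213 for these 5 among 15954 genes. Cotl1, an actin-binding protein, had 1393, 1363 and 1224 normalized counts. With 3 samples many genes come close, and 6033 lay within 0.1. The nearest of the other 9 genes was Clk3, at 0.0326, with 983 genes closer, and the farthest was Clk1, at 0.170, with 10181 closer.

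The median of 13 listed kinases of the same group lay below Clk1, Clk2 and Clk4 with either length, while the place of Clk3 turned with the length. Clk3 was 0.852 ± 0.0556 times that median with the deposited length and 1.65 ± 0.0156 times without bases of retained-intron transcripts only (SD, n = 3). The list held the SRPK, DYRK and HIPK kinases and Prpf4b, and did not cover the whole group, known as CMGC. SRPKs phosphorylate SR proteins mainly in the cytoplasm. Of 13 listed, 12 passed the CPM minimum, and the median level of the list was 58.4 ± 3.36 TPM (SD, n = 3). The top 10% held 1 of them, Hipk4, with 202 ± 3.22 TPM. Dyrk4 had 0 counts in each replicate, for which the limit of 3 counts is 0.144 to 0.467 TPM and covers counting error only.

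Srpk3 and Dyrk1b varied most, with coefficients of variation of 29.9% and 17.0%. The sum of the CLK genes was 2.78 ± 0.0632 times that of Srpk1, Srpk2 and Srpk3, at 397 ± 24.9 TPM and 143 ± 11.3 TPM. It was 1.55 ± 0.124 times that of the 5 DYRK genes, at 397 ± 24.9 TPM and 256 ± 4.25 TPM (SD, n = 3). Without bases of retained-intron transcripts only, the CLK sum was 803 ± 51.02 TPM, and the ratios were 3.88 ± 0.0728 to the SRPK sum and 3.68 ± 0.287 to the DYRK sum (SD, n = 3).

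SR proteins, the substrates of the CLK kinases, were abundant. All 13 listed genes passed the minimum, 7 of them in the top 10%, and their median was 192 ± 5.05 TPM (SD, n = 3). Srsf5 was the highest with 454 ± 2.05 TPM and Srsf4 the lowest with 36.4 ± 2.81 TPM, and Srsf4 and Srsf10 varied most, at 9.83% and 9.43%.

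With the deposited length, nuclear speckle genes were close to the 10 genes in level. The 13 genes had a median level of 164 ± 4.51 TPM (SD, n = 3), against 170 TPM for the 10 genes, and the top 10% held 6 of them. Srrm2, a scaffold of speckles, had 534 ± 26.6 TPM, Ccnl1, a cyclin found in speckles, had 86.8 ± 10.2 TPM, and Rbm6 was the lowest with 37.5 ± 2.67 TPM. Comparisons with this list and with the SR protein, U1 snRNP and SAC3 lists were made with the deposited length only.

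Of the proteins of the U1 snRNP and its partners, Snrnp70, a core component that varied between replicates with 449, 551 and 471 TPM, was the highest. Snrpc was the lowest, with 10.8 ± 1.73 TPM, and Snrpa had 64.0 ± 9.02 TPM. The top 10% held 2 of the 9 genes, whose median was 128 ± 8.17 TPM (SD, n = 3). Luc7l3 stood above each of the 9. The median coefficient of variation of the list was 11.7%, and it was 2.09% for Luc7l3, 7.47% for Luc7l2 and 2.86% for Luc7l.

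The listed relatives of Leng8 in domain or in name, and the listed TREX-2 genes, were less abundant than Leng8. Over 9 SAC3, TREX-2 and Leng genes the median was 49.4 ± 2.47 TPM (SD, n = 3), and 0 of them reached the top 10%. Eny2 was the highest with 124 ± 13.4 TPM, and Mcm3ap, the scaffold of TREX-2, had 81.4 ± 1.35 TPM. Leng9 was the lowest with 14.0 ± 4.26 TPM and Sac3d1 had 33.5 ± 8.20 TPM.

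**Figure D5:**
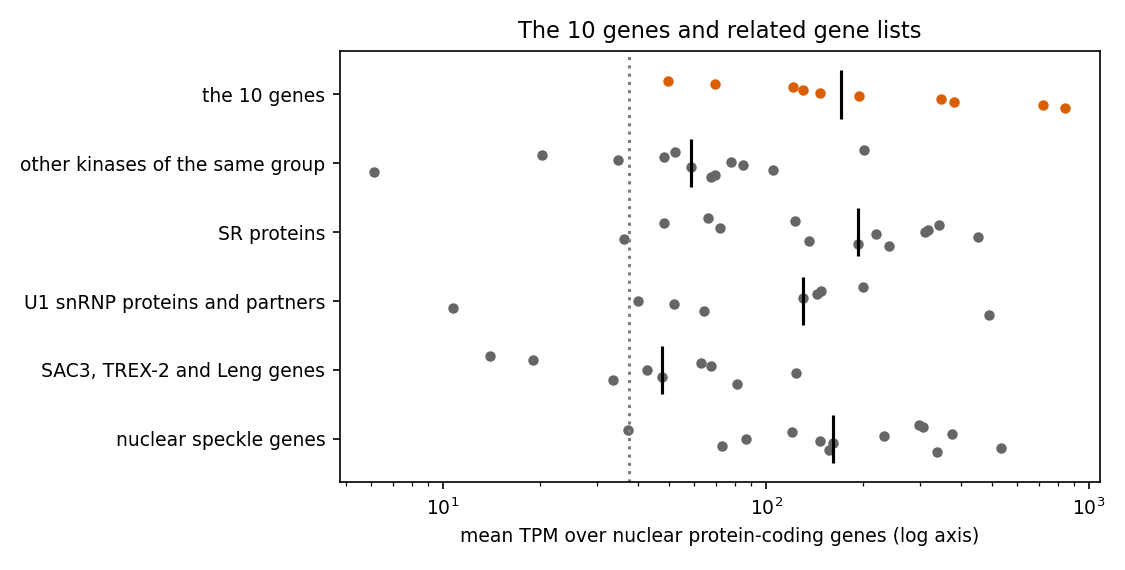
Mean TPM over nuclear protein-coding genes (log axis, n = 3) of the 10 genes (orange) and of the members of 5 related lists (grey), with the median of each row as a bar. Dyrk4, at 0, is not drawn. The dotted line is the median of expressed protein-coding genes, 37.6 TPM, and the 10 genes run from 49.6 to 844 TPM.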

How the data were processed

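Counts per gene were used as the authors deposited them, as raw counts for 3 biological replicates in 1 table, with 0 columns of other samples. In the submitters' processing notes, STAR and featureCounts are named as tools and both mm10 and GRCm38 as builds, with no version. Libraries were poly(A) selected, made with a TruSeq RNA kit and sequenced as paired 150 bp reads. Whether reads or fragments were counted, the strand setting and the treatment of reads that map more than 1 time are not given in the sources used here. Without strand, reads of a gene and of its antisense partner cannot be told apart. The gene length in the table, a further deposited column, is the merged exon length in bp, which equalled the file's own exon records in every gene.

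Symbols, transcript types and splice sites were taken from GENCODE M21 on GRCm38, whose exon records equalled the table's in 9 of the 10 genes (not in Luc7l) and in 93.4% of 52636 genes. The reference transcript was the protein-coding transcript chosen by the APPRIS principal tag, then the CCDS tag, then exon length. TPM was scaled over 21883 nuclear protein-coding genes, because the 57 bp noncoding gene Gm23935 took 32.7%, 48.3% and 40.5% of TPM over all genes in replicates 1, 2 and 3. Size factors were 1.78, 0.963 and 0.592, and mitochondrial genes took 7.09% to 10.6% of counts. A gene was called expressed where CPM reached 1 in all 3 replicates. Scripts were tested on simulated data. Python 3.11.15 with pandas 2.3.3 was used, and edgeR 4.0.16 in R 4.3.3 gave TMM factors for an alternative.

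The genes, lists and rules were chosen with earlier results of these data known. The genes named were the 10, the highest, the lowest and the 2 most variable genes of each list, and the 5 closest to Leng8 in profile. Mcm3ap, the members of the SRPK and DYRK sums and Prpf4b, genes that share exon bases or words with the 10, Slc32a1 and Gm23935 were named outside this rule, after values were seen. The 3 replicates are separate pools of mice, with no group to pair them with. Alternatives were the denominator of TPM, RPKM, the gene length, the filter, the measure of rank, the normalization and leaving out each replicate. Fold changes and p-values were not computed.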

Additional observations from a re-analysis of the deposited data

How the results depend on the processing

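In all, 88 alternatives were run for 16 results. In 54 the shift was below the replicate spread (or, for counts, below 1.5 times), in 34 it was larger, and no single value turned its direction. The order of levels did turn for 4 of 45 pairs without bases of retained-intron transcripts. In comparisons added after seeing the data, this length also gave Clk3 1.65 times the median of the other listed kinases in place of 0.852 times. It moved the ratios of the CLK sum to 3.88 in place of 2.78 (SRPK) and 3.68 in place of 1.55 (DYRK). Leng8, at 382 TPM, had 120 TPM over all genes, 64.7 RPKM with TMM and 349 TPM without bases of retained-intron transcripts. The first 2 scale all 10 genes alike, by 0.312 to 0.315 and by 0.169, and keep their order, while the third scales them by 0.799 for Pnisr to 2.21 for Clk1. With no filter on low counts, 8 genes in place of 5 were in the top 10%, since more low genes were ranked. The median coefficient of variation was 14.9% with TPM over all genes in place of 3.75%. The log2 ratio of Clk1 to Clk4, 0.17, was 0.32 without bases of retained-intron transcripts and 0.66 on counts with no length, and that of Luc7l3 to Luc7l, 2.56, was 2.36 without these bases. Leaving out each replicate gave 378 to 389 TPM for Leng8, 7 to 9 separated neighbours, 5 genes in the top 10%, 3.37% to 4.10% for the median coefficient of variation, 0.13 to 0.22 for Clk1 to Clk4 and 2.53 to 2.59 for Luc7l3 to Luc7l. With a replicate left out, ranges can only narrow, so the number of separated neighbours could not fall below 7. For the other 9 levels, 28 of 54 alternatives stayed within the spread. No paired analysis was possible because the samples form 1 group. Depth limits none of the 10 levels, since each had at least 969 counts in a replicate.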
